A study of Mus musculus with 21 samples.

Results

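The 8 genes Lef1, Tcf7, Satb1, Foxp1, Bach2, Foxo1, Ets1 and Id3 encode transcription factors known from naive T cells, and were followed in spleen CD4+ and CD8+ T cells of mice raised in an enriched (EE) or a standard (SE) environment. They were chosen by name, 8 of 12994 genes of the deposited table, when a score of naive genes was already known to separate the EE and SE samples of CD4+ T cells. Their EE and SE values in CD4+ T cells are therefore given as a description, without a test. Naive T cells are mature cells that have not met their antigen. They circulate between blood, spleen and lymph nodes, and a set of transcription factors keeps them quiescent, able to enter lymphoid tissue and able to respond to survival signals. Several of these factors are switched down when the cells are activated and take up an effector program.

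Female C57BL6/J mice entered EE at 4 weeks of age and stayed there for 4 weeks, or were kept in SE without objects. Spleen cells that were CD45+, CD11b- and CD3+, and either CD4+ or CD8+, were sorted, and their cDNA was counted with unique molecular identifiers (UMIs), which count a molecule once, from the 5′ end of its transcript. There were 6 CD4+ samples from EE, 5 CD4+ samples from SE, 6 CD8+ samples from EE and 4 CD8+ samples from SE. By the numbers in the labels they came from 12 mice, of which 9 gave both populations. According to the labels the animals of an environment shared a cage, and according to the paper the animals were assigned to SE or EE at random. Effects of the cage and of the environment cannot be told apart. A sample held between 145546 and 221454 molecules, and between 9302 and 10137 genes were detected in it. The median number of molecules was 164056.5 in CD4+ EE, 176086 in CD4+ SE, 191906.5 in CD8+ EE and 194488 in CD8+ SE samples.

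The sorted populations carried the markers of their labels. The level of a gene is given throughout as its normalized UMI count, the molecule count divided by the size factor of the sample. For Cd4 the CD4+ samples had a mean of 58.4 ± 12.0 (SD, n = 11), against 0.374 ± 0.484 (SD, n = 10) for the CD8+ samples. The summed level of Cd8a and Cd8b1 was 304 ± 22.9 (SD, n = 10) across CD8+ samples, against 4.41 ± 2.47 (SD, n = 11) across CD4+ samples. The populations did not overlap for Cd4, Cd8a or Cd8b1. The summed level of 4 genes of the CD3 complex was 461 ± 46.3 (SD, n = 11) in CD4+ and 470 ± 36.6 (SD, n = 10) in CD8+ samples. Cd3d was the most abundant of them, and 1 of the 4, Cd247, was higher in CD4+ samples, at 45.9 against 31.99 (log2 difference 0.49, adjusted p = 0.0101).

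Markers of other cells differed between samples. The summed level of 10 B-cell markers ran from 39.1 to 440 in CD4+ samples, with a mean of 255 ± 99.6 (SD, n = 11), and from 35.0 to 111 in CD8+ samples, with a mean of 51.2 ± 22.2 (SD, n = 10). In CD4+ samples Cd74 was the most abundant of them, at a mean of 110, against 5.02 in CD8+ samples. Ighm was the most abundant in CD8+ samples, at 37.8, and was at 40.8 in CD4+ samples. Ms4a1 and Ebf1 were at 0 in every CD8+ sample. Within CD4+ samples the EE group had a B-cell sum of 259 ± 41.4 (SD, n = 6), against 250 ± 150 (SD, n = 5) for the SE group, where replicate 1 was at 39.1 and replicate 3 at 440. The summed level of red cell markers was at most 18.02 in all samples except CD8+ EE replicate 6 at 397 and CD8+ SE replicate 3 at 802. Myeloid markers were at 27.3 ± 16.1 (SD, n = 11) in CD4+ and 25.5 ± 10.7 (SD, n = 10) in CD8+ samples, with Cst3 as the most abundant. The NK-cell markers, mainly Klrd1, which CD8+ T cells also express, had a sum of 7.57 ± 3.54 (SD, n = 11) in CD4+ samples, against 57.1 ± 11.5 (SD, n = 10) for CD8+ samples. The platelet marker Pf4 was at most 3.72. Several of the 8 factors are also expressed in B cells, and the part of B-cell RNA in their levels was not tested.

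Each of the 8 factors was detected in all 21 samples and passed the filter on low means in every comparison. Together they gave 276 to 487 molecules per sample, or 0.185% to 0.271% of its molecules. A single factor gave between 7 molecules (Id3) and 145 molecules (Lef1) in a sample. Because the samples are bulk RNA, fewer cells that express a factor and less of its RNA per cell cannot be told apart. The counts are tags of a transcript's end and not values per length, so that levels are compared between samples. Where the most abundant gene of a list is named, this is by its mean count and not per length. The mean is over all 21 samples unless a population is given.

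Lef1 and Tcf7 encode the HMG box proteins LEF1 and TCF1, which direct T-cell development in the thymus and maintain naive and memory T cells. The level of Lef1 in CD4+ EE samples had a lowest value of 62.4, a median of 87.7 and a highest value of 103, and in CD4+ SE samples it was 81.7, 85.6, 97.0, 105 and 116. In CD8+ EE samples Lef1 had a lowest value of 67.8, a median of 88.1 and a highest value of 103, and in CD8+ SE samples it was 73.3, 90.4, 101 and 124. All 4 groups of Lef1 overlapped. The group means of Lef1 were 84.5 ± 16.4 (SD, n = 6) for CD4+ EE, 97.1 ± 14.1 (SD, n = 5) for CD4+ SE, 87.6 ± 12.8 (SD, n = 6) for CD8+ EE and 97.1 ± 21.3 (SD, n = 4) for CD8+ SE. The level of Tcf7 in CD4+ EE samples ran from 41.2 over a median of 53.4 to 56.9, and in CD4+ SE samples it was 50.3, 56.7, 58.9, 71.0 and 74.3. In CD8+ EE samples Tcf7 ran from 42.3 over a median of 52.9 to 78.3, and in CD8+ SE samples it was 47.1, 55.6, 56.8 and 63.4. For Tcf7, no CD4+ EE sample reached the mean of the CD4+ SE samples, but SE replicates 3 and 4 lay among the EE samples. Group means of Tcf7 were 51.0 ± 6.76 (SD, n = 6) for CD4+ EE, 62.3 ± 10.1 (SD, n = 5) for CD4+ SE, 56.9 ± 12.8 (SD, n = 6) for CD8+ EE and 55.7 ± 6.69 (SD, n = 4) for CD8+ SE.

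Satb1 organizes chromatin in thymocytes and T cells. Its level in CD4+ EE samples had a lowest value of 34.7, a median of 61.1 and a highest value of 70.5, and in CD4+ SE samples it was 63.1, 65.9, 80.7, 83.3 and 95.7. In CD8+ EE samples Satb1 ran from 45.1 over a median of 60.7 to 81.6, and in CD8+ SE samples it was 40.6, 56.7, 58.2 and 69.8. SE replicates 1, 5 and 6 of the CD4+ population were above every CD4+ EE sample, SE replicates 3 and 4 lay among the upper EE samples, and EE replicate 5 was far below the others. The group means were 58.2 ± 12.2 (SD, n = 6) for CD4+ EE, 77.8 ± 13.4 (SD, n = 5) for CD4+ SE, 64.2 ± 14.5 (SD, n = 6) for CD8+ EE and 56.4 ± 12.0 (SD, n = 4) for CD8+ SE.

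Foxp1 and Foxo1 encode forkhead proteins: FOXP1 holds naive T cells in quiescence, and FOXO1 is inhibited by AKT and sustains genes of trafficking and survival such as Klf2 and Il7r. The level of Foxp1 in CD4+ EE samples ran from 31.1 over a median of 39.3 to 57.2, and in CD4+ SE samples it was 41.1, 41.2, 43.9, 49.6 and 61.7. In CD8+ EE samples Foxp1 ran from 28.8 over a median of 34.5 to 37.6, and in CD8+ SE samples it was 33.6, 36.8, 50.0 and 51.2. The CD8+ EE samples of Foxp1 lay close together, and SE replicates 2 and 6 of that population were above all of them. Its group means were 42.4 ± 10.6 (SD, n = 6) for CD4+ EE, 47.5 ± 8.67 (SD, n = 5) for CD4+ SE, 34.1 ± 2.90 (SD, n = 6) for CD8+ EE and 42.9 ± 9.01 (SD, n = 4) for CD8+ SE. Foxo1 was spread widely in the CD4+ samples, from 16.6 to 42.9 in EE and from 21.4 to 43.2 in SE, and less widely in the CD8+ samples, from 23.3 to 38.7 in EE and from 25.7 to 37.1 in SE. Its groups overlapped over nearly their whole range. Means of Foxo1 were 27.7 ± 10.8 (SD, n = 6) for CD4+ EE, 31.1 ± 8.31 (SD, n = 5) for CD4+ SE, 29.4 ± 5.98 (SD, n = 6) for CD8+ EE and 31.1 ± 4.92 (SD, n = 4) for CD8+ SE.

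Bach2 represses genes of effector differentiation. Its level in CD4+ EE samples ran from 18.3 over a median of 20.3 to 26.4, and in CD4+ SE samples it was 15.5, 19.6, 26.5, 31.3 and 38.3. In CD8+ samples Bach2 ran from 14.6 to 23.5 in EE and from 17.3 to 21.4 in SE. The CD4+ SE group held both the highest value and a value below all CD4+ EE samples. Means of Bach2 were 21.4 ± 3.17 (SD, n = 6) for CD4+ EE, 26.3 ± 9.09 (SD, n = 5) for CD4+ SE, 20.2 ± 3.69 (SD, n = 6) for CD8+ EE and 19.0 ± 1.74 (SD, n = 4) for CD8+ SE.

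Ets1 encodes an ETS-domain activator that acts in T-cell development and survival, and Id3 an inhibitor of DNA binding by E proteins. Ets1 ran from 41.2 to 72.2 in CD4+ EE, from 47.3 to 70.3 in CD4+ SE, from 40.9 to 57.0 in CD8+ EE and from 43.3 to 63.4 in CD8+ SE samples. Ets1 had group means of 56.4 ± 12.0 (SD, n = 6) for CD4+ EE, 62.2 ± 9.36 (SD, n = 5) for CD4+ SE, 50.6 ± 5.94 (SD, n = 6) for CD8+ EE and 54.5 ± 9.95 (SD, n = 4) for CD8+ SE. The 4 groups of Ets1 overlapped. The level of Id3 in CD4+ EE samples ran from 8.55 over a median of 28.3 to 34.5, and in CD4+ SE samples it was 19.1, 19.6, 20.1, 27.5 and 36.1. In CD8+ EE samples Id3 ran from 6.80 over a median of 14.8 to 29.2, and in CD8+ SE samples it was 8.38, 20.2, 24.0 and 26.5. EE replicates 1 and 3 of the CD4+ population, at 12.6 and 8.55, were low for Id3, and the other EE samples lay within the SE range. Id3 had group means of 24.2 ± 11.3 (SD, n = 6) for CD4+ EE, 24.5 ± 7.34 (SD, n = 5) for CD4+ SE, 16.8 ± 8.17 (SD, n = 6) for CD8+ EE and 19.8 ± 8.02 (SD, n = 4) for CD8+ SE.

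When the 4 groups were ordered by their means, CD4+ SE came first for 7 of the 8 factors. The factors were chosen with a score in the CD4+ contrast of EE and SE known, so that this place supports nothing. The same holds for the sum of their levels in CD4+ EE and SE samples. For Lef1, CD8+ SE and CD4+ SE had nearly the same mean, 97.10 and 97.08. The order below the first place differed between factors: CD4+ EE was last for Lef1, Tcf7 and Foxo1, CD8+ EE for Foxp1, Ets1 and Id3, and CD8+ SE for Satb1 and Bach2. In each order, neighbouring means differed by less than the larger of their 2 SDs. The gap was larger than the smaller of the SDs between CD4+ EE and CD8+ EE for Foxp1, between CD4+ SE and CD4+ EE for Bach2 and between CD4+ SE and CD8+ EE for Satb1. The highest group mean was 1.12 times the lowest for Foxo1, 1.15 for Lef1, 1.22 for Tcf7, 1.23 for Ets1, 1.38 for Satb1, 1.38 for Bach2, 1.39 for Foxp1 and 1.46 for Id3. The sum of the 8 levels was 366 ± 35.0 (SD, n = 6) in CD4+ EE, 429 ± 24.2 (SD, n = 5) in CD4+ SE, 360 ± 29.3 (SD, n = 6) in CD8+ EE and 376 ± 38.9 (SD, n = 4) in CD8+ SE samples.

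**Figure D1:**
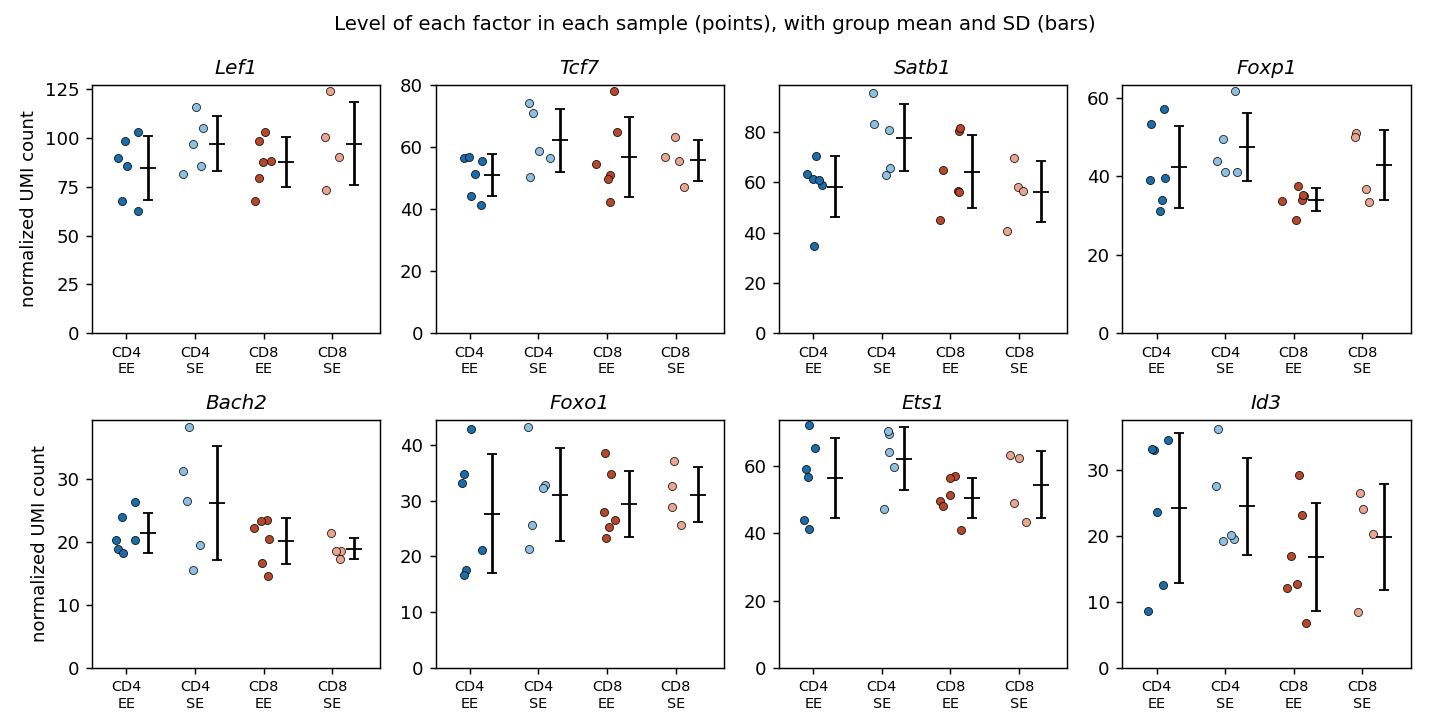
Level (normalized UMI count, vertical axis) of each of the 8 factors in each sample (points) by group (horizontal axis), with the mean and SD of the group as a bar beside the points. EE and SE samples overlap within each population for every factor. The CD8+ EE samples of Foxp1 sit between 28.8 and 37.6. Satb1 of CD4+ EE replicate 5 is at 34.7, below the rest of its group.

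CD4+ and CD8+ T cells, the comparison named in the title of the series, had log2 differences between −0.09 and 0.42 for the 8 factors. Each is the log2 of the CD4+ level over the CD8+ level, averaged over the environments, with a 95% interval, and a gene was called at an adjusted p under 0.05 over all genes tested. None of the 8 factors was called by limma, where 349 of 7938 genes (4.40%) were called, 185 higher and 164 lower in CD4+ samples, and 1176 had an unadjusted p under 0.05. With edgeR and DESeq2 the number of factors called was also 0, of 365 and 324 genes called.

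For Id3 the difference depended on the fit. Its level had a lowest value of 8.55, a median of 23.6 and a highest value of 36.1 in CD4+ samples, and of 6.80, 18.6 and 29.2 in CD8+ samples. Most CD4+ samples of Id3, 9 of 11, were above the CD8+ mean, but the populations overlapped over most of their range, with a log2 difference of 0.42 (−0.01 to 0.85, adjusted p = 0.359). It was 0.19 with a block by mouse, which rests on the 9 mice with both populations, below the blocked values of Bach2 (0.29), Satb1 (0.25) and Foxp1 (0.23), ran from 0.25 to 0.54 when each sample was left out in turn, and was 0.59 without the samples high in red cell markers (adjusted p = 0.167). Foxp1 ran from 31.1 over a median of 41.2 to 61.7 in CD4+ samples and from 28.8 over 35.1 to 51.2 in CD8+ samples. For Foxp1 also 9 of 11 CD4+ samples were above the CD8+ mean, with a log2 difference of 0.21 (−0.04 to 0.47, adjusted p = 0.471).

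Bach2 had a log2 difference of 0.24 (−0.09 to 0.56, adjusted p = 0.548), with 7 of 11 CD4+ samples above the CD8+ mean. The difference was 0.16 for Satb1 (−0.08 to 0.41, adjusted p = 0.588) and 0.16 for Ets1 (−0.07 to 0.40, adjusted p = 0.566), each with 8 of 11 CD4+ samples above the CD8+ mean. Tcf7, Lef1 and Foxo1 were the closest to equal. Their log2 differences were 0.01 (−0.22 to 0.24, adjusted p = 0.991), −0.02 (−0.23 to 0.18, adjusted p = 0.950) and −0.09 (−0.40 to 0.23, adjusted p = 0.863). The signs of Tcf7 and Lef1 were not steady: Tcf7 turned to −0.0096 with edgeR and −0.0042 with DESeq2 and ran from −0.03 to 0.05 when each sample was left out, and Lef1 ran from −0.09 to 0.04 and was positive without any of 5 samples. Without the samples high in red cell markers Lef1 was −0.12, Tcf7 −0.0088, Foxo1 −0.06 and Ets1 0.11. Foxo1 ran from −0.16 to −0.03 when each sample was left out and was −0.04 with edgeR and with DESeq2. Satb1 fell to 0.09 without CD8+ SE replicate 3. With the block by mouse Foxo1 was −0.14 and Tcf7 0.04, and with equal totals Tcf7 was 0.02 and Lef1 −0.0058. The ends of the 8 separate intervals of this fit, as ratios of CD4+ to CD8+ level, ran from 0.756 for Foxo1 to 1.81 for Id3. The median log2 difference of the 8 was 0.16, beside −0.01 over all genes tested. The level of B-cell markers was higher in CD4+ samples, with markers such as Cd74 and Cd79a called, and its part in these differences was not tested.

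In the 9 mice that gave both populations, the sum of the 8 levels was higher in the CD4+ sample of 7 mice, of which 4 were from EE and 3 from SE. The CD4+ level in the SE mice is part of the contrast known when the factors were chosen. The same count over all genes was not made. Foxp1 was higher in the CD4+ sample of 7 mice, Ets1 of 6, Id3 of 6, Satb1 of 5, Lef1 of 4, Tcf7 of 4, Bach2 of 4 and Foxo1 of 3. No factor was higher in the same population in all 9 mice.

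Other transcription factors of T cells differed between the same samples. Zbtb7b, which encodes the CD4-lineage factor ThPOK, had a level from 1.03 over a median of 9.15 to 21.2 in CD4+ samples, and was at 0 in all CD8+ samples except SE replicate 2, which held 1 molecule (adjusted p = 1.6e-10). Runx3, the CD8-lineage factor, was at 6.07 in CD4+ and 21.7 in CD8+ samples (log2 difference −1.72, adjusted p = 7.2e-08), and no CD4+ sample reached a CD8+ sample. Of the 3 lineage genes, Runx3 was the most abundant in CD8+ samples and Zbtb7b, at a mean of 11.6, in CD4+ samples. The difference for the third lineage gene, Gata3, was 0.82 and was not called (adjusted p = 0.223). Among 8 tested of 13 listed effector and memory factors, 2 were called higher and 1 lower in CD4+ samples. Maf, a factor of helper T cells, had a mean level of 10.4 ± 6.73 (SD, n = 11) for CD4+ samples, against 0.268 ± 0.432 (SD, n = 10) for CD8+ samples (adjusted p = 2.5e-09). Rora was at 5.66 and 1.67 (log2 difference 1.27, adjusted p = 0.0376), a call lost with a pseudocount of 0.5 (adjusted p = 0.0635, range over these alternatives 0.0196 to 0.0869) and without the samples high in red cell markers. It was also lost without any of 12 single samples: CD4+ EE replicates 2 and 4, CD4+ SE replicates 3, 5 and 6, CD8+ EE replicates 1, 2, 5 and 6, and CD8+ SE replicates 1, 2 and 3 (adjusted p from 0.0554 to 0.125). Eomes, a factor of cytotoxic and memory cells, was at 0.855 in CD4+ and 3.84 in CD8+ samples (log2 difference −1.34, adjusted p = 0.0225), a call lost without CD8+ SE replicate 1 (adjusted p = 0.0966, and 0.0121 to 0.0966 over all single samples left out). Id2, the most abundant of this list and the relative of Id3, was not called (log2 difference 0.30, adjusted p = 0.538).

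**Figure D2:**
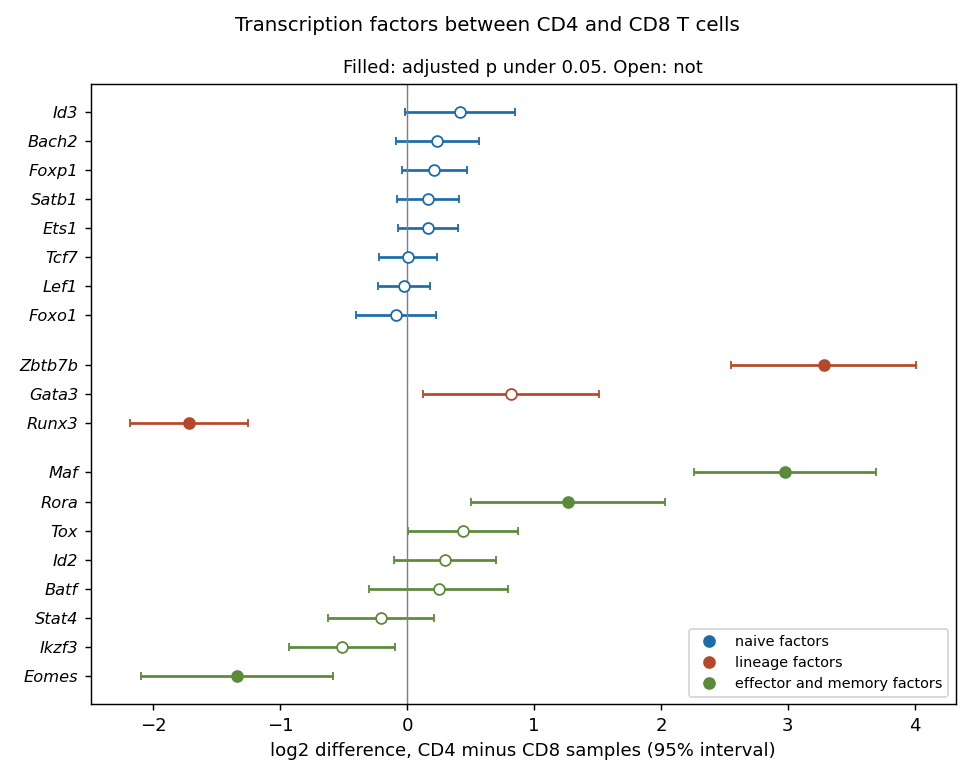
Log2 difference in level between CD4+ and CD8+ samples (horizontal axis, points with 95% intervals from limma) of the 8 naive factors, the 3 lineage factors and the 8 tested effector and memory factors (vertical axis), on log2 of the level plus 1; filled points have an adjusted p under 0.05. The naive factors lie between −0.09 and 0.42, all with intervals that hold 0 (the sign of Tcf7 changes with edgeR and DESeq2), while Zbtb7b, Maf, Rora, Runx3 and Eomes are called.

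Of the family relatives of the 8 factors, 9 of 14 were in the table and 5 had means that allowed a test, and none of these 5 was called by limma. Foxo4, a relative of Foxo1, had the lowest adjusted p of the 5, at 0.152, with a level of 3.82 in CD4+ and 1.53 in CD8+ samples. Foxp3, the regulatory T-cell factor, was found in 8 of 11 CD4+ and 1 of 10 CD8+ samples, at low levels. Of 18 partners and regulators, which include the E proteins, the corepressors of TCF1 and LEF1, the AKT pathway and RUNX1, 16 were tested and 1 was called. Runx1, a partner of ETS1 on T-cell enhancers, was at 12.8 ± 4.62 (SD, n = 11) in CD4+ and at 5.45 ± 2.55 (SD, n = 10) in CD8+ samples, with 10 of 11 CD4+ samples above the CD8+ mean (log2 difference 1.11, adjusted p = 0.0029). Ncor1, a corepressor and the most abundant of this list, was at 38.79 in CD4+ and 38.90 in CD8+ samples. The median log2 difference of the partners was −0.17.

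Genes of naive trafficking and survival, several of which FOXO1 is known to control, differed in both directions. Dapl1 was lower in CD4+ samples, at 51.5 against 89.1 (log2 difference −0.80, adjusted p = 8.7e-07), and Igfbp4 was higher, at 64.6 against 27.9 (log2 difference 1.17, adjusted p = 8.0e-10). Il7r, the most abundant, was at 108 and 113 and was not called. The median log2 difference of the list was −0.04. Of 14 tested genes of antigen-experienced T cells, 6 were higher in CD4+ samples (Cd44, S100a4, S100a6, Itgb1, Lgals1 and Ctla4) and 1, the cytotoxic granule gene Nkg7, was lower, with a median of 0.64. Crip1, the most abundant of them over all 21 samples, was at 139 and 135. Nkg7 was at 14.7 and 150, above Crip1 in CD8+ samples. Ctla4 was also the 1 called gene of 2 tested genes of regulatory T cells, and Ikzf2, the most abundant of these, was not called (log2 difference 1.14, adjusted p = 0.0661).

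EE and SE were compared within CD4+ T cells, the population that the study depleted in mice to ask about plasticity of the hippocampus. The mean of each of the 8 factors was lower in EE than in SE samples. They were selected from genes of naive cells with a score in this contrast known, so that their common direction supports nothing. The log2 difference of EE from SE was −0.43 for Satb1, −0.28 for Tcf7, −0.23 for Bach2, −0.21 for Lef1, −0.21 for Foxo1, −0.18 for Foxp1, −0.15 for Ets1 and −0.13 for Id3. The number of EE samples above the SE mean was 0 of 6 for Satb1 and Tcf7, 1 for Bach2, 2 for Lef1, Foxp1 and Ets1, and 3 for Foxo1 and Id3. Their median was −0.21, beside 0.00 over all genes tested, of which 49.9% had a negative difference. The sum of the 8 levels had a lowest value of 320, a median of 362 and a highest value of 409 in EE samples, and was 401, 415, 419, 453 and 455 in SE samples. EE replicate 2 was the 1 EE sample of this sum that lay within the SE range.

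The sizes of these differences depended on single samples. For Satb1 the log2 difference ran from −0.50 to −0.29 when each sample was left out in turn, with the smallest size without EE replicate 5. For Tcf7 it ran from −0.35 to −0.21 and for Lef1 from −0.27 to −0.13, the latter without EE replicate 4. The moves were larger for Bach2, from −0.39 without SE replicate 4 to −0.08 without SE replicate 6, and for Foxo1, from −0.35 without EE replicate 2 to −0.08 without SE replicate 1. Foxp1 ran from −0.27 without EE replicate 6 to −0.08 without SE replicate 5, and Ets1 from −0.24 without SE replicate 6 to −0.07 without EE replicate 4. For Id3 it ran from −0.26 without EE replicate 4 to 0.12 without EE replicate 3. It became positive without EE replicate 1 (0.01), EE replicate 3 or SE replicate 5 (0.01), and with edgeR and DESeq2 it was −0.0041 and −0.00041. Over all genes, 1 of 7939 (0.0126%) was called by limma and 462 had an unadjusted p under 0.05. The called gene was S100a6, from the list of antigen-experienced genes, at 39.5 in EE and 13.3 in SE samples (log2 difference 1.46, adjusted p = 0.0178), with all 6 EE samples above all 5 SE samples. This call was lost with the smaller pseudocount, the higher limit on means, the replicate block or a fit on all 21 samples (adjusted p from 0.0606 to 0.428). It was also lost without EE replicate 2, 4 or 5 or SE replicate 1 or 5 (adjusted p from 0.0890 to 0.346). Of the 15 genes of that list 12 had a positive difference, with a median of 0.49. The list was chosen with earlier results of these data known, so that its direction supports nothing either. None of the tested genes among the partners, relatives, trafficking genes, effector factors, lineage factors or regulatory T-cell genes was called by limma.

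In CD8+ T cells the mean of 5 of the 8 factors was lower in EE than in SE samples and that of 3 was higher. None of the 8 was called by limma, beside 0 of 7840 genes (0%) called and 413 with an unadjusted p under 0.05, and the number of genes called was 0 with edgeR and DESeq2 as well. No EE sample of Foxp1 exceeded the mean of SE, with a log2 difference of −0.30 (−0.67 to 0.06) and an adjusted p of 0.962 from limma. The groups overlapped, since SE replicates 1 and 3 lay among the EE samples.

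Id3 had a log2 difference of −0.24 (−0.85 to 0.36), Lef1 of −0.14 (−0.41 to 0.14), Ets1 of −0.10 (−0.42 to 0.23) and Foxo1 of −0.09 (−0.49 to 0.32). Single samples moved these values. Id3 ran from −0.59 without SE replicate 2 to −0.03 without EE replicate 4, and Lef1 from −0.26 without SE replicate 3 to −0.0095 without SE replicate 1. Ets1 ran from −0.20 without SE replicate 3 to −0.02 without SE replicate 1, and Foxp1 from −0.41 without SE replicate 3 to −0.21 without SE replicate 2. The difference was 0.01 for Tcf7 (−0.32 to 0.33), 0.07 for Bach2 (−0.40 to 0.54) and 0.18 for Satb1 (−0.15 to 0.51). The adjusted p of all 8 was between 0.962 and 0.999 with limma. Leaving out single samples gave 0.03 to 0.29 for Satb1, 0.02 to 0.15 for Bach2, −0.09 to 0.09 for Tcf7 and −0.17 to 0.0010 for Foxo1. A block by replicate number, which joins different mice, turned Id3 to 0.08, Foxo1 to 0.04 and Tcf7 to −0.04 and took Bach2 to 0.00043. Without EE replicate 6 and SE replicate 3, the samples high in red cell markers, Satb1 turned to −0.041 and Foxo1 to 0.02, while Ets1 was −0.19, Bach2 0.14 and Tcf7 0.04. Tcf7 was −0.0050 with equal totals, 0.03 with edgeR and 0.02 with DESeq2. The median of the 8 was −0.09, beside −0.01 over all genes tested. The sum of the 8 levels ran from 338 over a median of 349 to 416 in EE samples and was 329, 363, 397 and 417 in SE samples, so that the groups overlapped fully.

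The difference between the environment effects of the populations, CD4+ minus CD8+, was described for the 8 factors and not tested, since it holds the contrast known at their choice. It was −0.61 for Satb1, −0.30 for Bach2, −0.29 for Tcf7, −0.12 for Foxo1, −0.07 for Lef1, −0.05 for Ets1, 0.11 for Id3 and 0.13 for Foxp1. Each of these values moved by over 1.5 times under at least 1 alternative. When each sample was left out in turn, Id3 ran from −0.10 to 0.46, Lef1 from −0.20 to 0.05, Ets1 from −0.15 to 0.05 and Foxo1 from −0.26 to 0.0015, so that these 4 changed sign. Foxp1 ran from 0.04 to 0.23, Bach2 from −0.46 to −0.15, Tcf7 from −0.37 to −0.19 and Satb1 from −0.72 to −0.46. With the block by mouse Satb1 was −0.79, Id3 0.58, Foxo1 −0.02 and Ets1 −0.0034. Without the samples high in red cell markers Satb1 was −0.39, Ets1 0.04, Foxp1 0.24, Foxo1 −0.23 and Lef1 −0.02. With edgeR and DESeq2 Id3 was 0.24 and 0.23, Foxo1 −0.08 and −0.08, and Ets1 −0.02 and −0.02, and with edgeR Lef1 was −0.05. Over all genes, 0 of 7938 (0%) were called by each of limma, edgeR and DESeq2, and 393 had an unadjusted p under 0.05 with limma.

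The factors differed in how much they varied among samples of a group. The variance within groups was divided by the variance that counting of molecules alone gives, for which 2727 genes with a mean above 10 had a median of 1.67 and quartiles of 1.29 and 2.24. Id3 was at 3.85, Lef1 at 2.96, Satb1 at 2.91 and Foxo1 at 2.20. Id3 thus stood above 94.98% of these genes. Tcf7 was at 1.69, Foxp1 at 1.61, Ets1 at 1.60 and Bach2 at 1.11. These ratios are pooled over the groups, and the SD of Bach2 was 9.09 in CD4+ SE but 1.74 in CD8+ SE samples. The highest sample was 5.31 times the lowest for Id3 and 1.76 times for Ets1.

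Within groups, the 8 factors were weakly correlated with each other. After the group means were taken off, the 28 pairs of factors had a median Pearson r of 0.08 over the 21 samples, with 16 pairs positive, beside −0.00 over all pairs of genes with a mean above 10. The highest r was 0.38 between Lef1 and Ets1, and the lowest −0.41 between Bach2 and Foxo1. These values describe samples that differ in depth and, for 9 mice, share an animal.

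The genes most like each factor over the 21 samples were taken from the same residual levels, as a description. Id3 was most like Csnk1d (r = 0.866, n = 21) and Hmgb2 (r = 0.771). Lef1 was most like H3f3b (r = 0.785) and Gm43584 (r = 0.703), and Tcf7 was most like Ubl5 (r = 0.767) and Rpl31-ps18 (r = 0.693). None of these 6 genes was among the 8 factors, and the same held for the genes that follow. Satb1 came closest to Zfr (r = 0.796) and Bri3 (r = 0.683), and Foxp1 to Fam101b (r = 0.725) and Evl (r = 0.679). Bach2 came closest to Numa1 (r = 0.731) and Psmd2 (r = 0.699), Foxo1 to Mfng (r = 0.656) and Copb2 (r = 0.653), and Ets1 to Pglyrp1 (r = 0.736) and Syf2 (r = 0.729).

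The 8 genes lie on 6 chromosomes of the GRCm38 build. Lef1 spans 131110471 to 131224356 of chromosome 3, on the plus strand, with 12 exons in its principal transcript. Foxo1 spans 52268336 to 52353221 of the same chromosome, plus strand, with 3 exons. Tcf7 spans 52252371 to 52283014 of chromosome 11, minus strand, with 10 or 11 exons. Satb1 spans 51736187 to 51833290 of chromosome 17, minus strand, with 10 or 11 exons. Foxp1 is the longest, from 98925338 to 99522721 of chromosome 6, minus strand, with 18 exons. Bach2 spans 32238804 to 32586108 of chromosome 4, plus strand, with 5 to 7 exons, and Id3, the shortest, spans 136143497 to 136145755 of the same chromosome, plus strand, with 3 exons. Ets1 spans 32636221 to 32757820 of chromosome 9, plus strand, with 8 exons. Apart from Id3, each gene overlaps 1 to 6 other annotated genes. Those in the table had low mean levels, of which the highest was 8.17 for C230085N15Rik within Satb1, and tags in such overlaps may have been assigned to either gene.

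Promoter windows from RefSeq, 250 bases before and 50 bases after a transcription start on GRCm38, were held for 7 of the 8 genes, with 17 windows in all, and Ets1 had none. They were searched on both strands for short strings bound by the families of the factors themselves. The TCF/LEF string CTTTGNT was in 4 of the 17 windows, of Foxp1 and Satb1, and in 18.6% of all 32851 windows. The ETS string CCGGAAG was in 2, of Tcf7 and Bach2, and in 8.86% of all windows, and the forkhead string TGTTTAC was in 1, of Tcf7, and in 3.65% of all. The 2 Satb1 windows with the TCF/LEF string overlap and share the same match, and no match overlapped one of another string. The 2 windows with the ETS string are printed as examples, at chr11:52282546-52282845 (minus strand) for Tcf7 and chr4:32417185-32417484 (plus strand) for Bach2. The windows with the TCF/LEF string are not printed. Capitals mark the strings, which are all read on the opposite strand: ETS at bases 226 to 232 and forkhead at bases 252 to 258 of the Tcf7 window, and ETS at bases 239 to 245 of the Bach2 window.
Tcf7: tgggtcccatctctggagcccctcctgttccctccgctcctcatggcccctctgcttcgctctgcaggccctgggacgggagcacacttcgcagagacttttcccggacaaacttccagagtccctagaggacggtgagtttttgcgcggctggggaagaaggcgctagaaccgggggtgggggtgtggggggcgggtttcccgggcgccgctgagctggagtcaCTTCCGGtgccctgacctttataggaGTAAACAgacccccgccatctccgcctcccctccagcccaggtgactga
Bach2: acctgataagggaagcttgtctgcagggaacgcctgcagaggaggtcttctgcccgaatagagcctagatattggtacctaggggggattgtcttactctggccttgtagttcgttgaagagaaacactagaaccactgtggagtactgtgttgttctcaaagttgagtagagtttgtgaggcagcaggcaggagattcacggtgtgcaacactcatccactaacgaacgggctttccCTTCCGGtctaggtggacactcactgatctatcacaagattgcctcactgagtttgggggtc
A match describes these letters and not binding. The bases after the start of the Tcf7 window were not found in a GENCODE transcript, whereas those of the Bach2 window were.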

How the data were processed

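The authors trimmed reads with cutadapt, aligned them with STAR 2.4.0a, counted unique molecules on an Ensembl model of GRCm38 with the Drop-seq tools, excluded samples by purity, filtered genes of low abundance and normalized with DESeq2. The purity rule of the paper leaves out CD4+ samples with non-zero CD8a and CD8b. Among the spleen samples used here, Cd8b1 was detected in 11 of 11 CD4+ samples and Cd8a in 5 of 11. How the counting used the strand is not stated. The deposited signal is the molecule count over the size factor of the sample; 100% of values were whole molecules (tolerance 0.001) after division by the smallest of the sample. The members and lists were chosen with earlier results of these data known.

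Genes with a mean above 2 were compared with limma 3.58.1 (R 4.3.3, trend, not robust) on log2(value + 1), with Benjamini-Hochberg adjustment and a threshold of 0.05, over 4 group means for the populations and within a population for the environments. Named are the members, their relatives, of each list the called genes and the most abundant one, and the 2 genes most like each member (mean above 10); some listed genes are not reported here. Alternatives were a pseudocount of 0.5, no filter, a mean above 10, equal totals, edgeR 4.0.16, DESeq2 1.42.0, a replicate block, all samples in the fit, and leaving out samples. The labels give a CD4+ and a CD8+ sample of 1 mouse the same number; the residual correlation of such pairs had a mean of 0.014 over 9 mice. EE and SE samples of the same number are different mice. Positions are from GENCODE M21.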

Additional observations from a re-analysis of the deposited data

Results flagged for a closer look

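In each group of samples, the highest and lowest value of each of the 8 factors, of their sum and of the summed level of 8 sets of markers (T-cell, CD4, CD8, B-cell, myeloid, NK-cell, red cell and platelet) were compared with the rest of the group, where the values of the group differed. Of 66 groups examined, 10 held a sample far from the others, where chance flags about 1 in 20 groups, or 3.3 of these 66. That share holds for independent, normally distributed values. Counts near 0 are not of that kind, and the sum of the 8 factors reuses their values. Of the 10, 4 rest on 0 to 4 molecules.

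Satb1 in CD4+ EE replicate 5 was at 34.7, from 38 molecules, while the other 5 samples of the group were between 58.8 and 70.5. The sum of the 8 factors in CD8+ EE replicate 2 was 416, while the other 5 samples of that group were between 338 and 363. The sum of B-cell markers in CD8+ EE replicate 6 was 111, while the other 5 samples were between 35.0 and 60.9. The sum of myeloid markers in CD4+ SE replicate 3 was 62.2, while the other 4 samples were between 11.4 and 25.9.

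The sum of red cell markers was 397 in CD8+ EE replicate 6, from 462 molecules, while the other 5 samples were between 0 and 3.88. It was 802 in CD8+ SE replicate 3, from 908 molecules, while the other 3 samples were between 0 and 8.65. Cd4 was at 0.966 in CD8+ EE replicate 2, from 1 molecule, and at 0 in the other 5 samples of that group. In CD8+ SE replicate 1 Cd4 was at 0, while the other 3 samples were between 0.883 and 0.961. The sum of platelet markers was 2.15 in CD4+ EE replicate 2, from 2 molecules, and 3.72 in CD8+ EE replicate 1, from 4 molecules, and 0 in the other 5 samples of each group.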

How the results depend on the processing

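Between the populations and between EE and SE in CD8+ T cells, none of the 8 factors was called under any alternative tried. The alternatives gave 768 differences of the factors, of which 725 kept their sign and 43 changed it: 17 of 232 between the populations, 10 of 152 between EE and SE in CD8+ T cells, 3 of 152 in CD4+ T cells and 13 of 232 for the difference between the environment effects. For the levels only 1 alternative was run, and they moved by less than 1 SD in 32 of 32 cases. The genes called between the populations numbered 349, with 421 without a filter on means and 216 with a mean above 10, where fewer genes were tested. They numbered 300 to 362 when each sample was left out in turn, and 311 with a replicate block by mouse, which rests on the 9 mice with both populations. Within a population the block joins EE and SE samples of the same number, which are different mice, and rests on 5 pairs in CD4+ and 4 pairs in CD8+ T cells. Leaving out the 2 samples high in red cell markers, an alternative chosen after seeing the data, gave 297.

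In CD4+ T cells the 1 gene called between EE and SE became 0 with a pseudocount of 0.5, 3 without a filter, 0 with a mean above 10, 2 with edgeR, 0 with a replicate block, 0 with all 21 samples in the fit and 0 to 3 when each sample was left out (3 without EE replicate 1, 2 without EE replicate 3, and 0 without EE replicates 2, 4 or 5 or SE replicates 1 or 5). In CD8+ T cells the 0 called became 3 without a filter, 2 with a replicate block and 0 to 3 when each sample was left out (3 without SE replicate 6, 2 without SE replicate 1, and 1 without EE replicate 3 or 4).

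Between the populations Lef1 ran from −0.086 to 0.039 when each sample was left out. Tcf7 was −0.0096 with edgeR, −0.0042 with DESeq2, −0.0088 without the red cell samples and −0.033 to 0.054 when each sample was left out. Between EE and SE in CD8+ T cells Tcf7 was −0.0050 with equal totals, −0.039 with the block and −0.088 to 0.086 when each sample was left out. Foxo1 was 0.037 with the block, 0.025 without the red cell samples and −0.17 to 0.0010 when each sample was left out. Id3 was 0.082 with the block, and Satb1 −0.041 without the red cell samples. The cause was not tested.

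A factor had 7 to 145 molecules in a sample, and the smallest groups held 4 and 5 samples. The separate 95% intervals of the main fit had ends at ratios from 0.756 to 1.81 for the population comparison and from 0.555 to 1.45 for the CD8+ environment comparison.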
